A study of Mus musculus with 31 samples.

Results

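The tubulin genes are 10 of the 48709 genes in the count tables of this series, and they were chosen by name: the alpha-tubulin genes Tuba1a, Tuba1b and Tuba4a, the beta-tubulin genes Tubb2a, Tubb2b, Tubb3, Tubb4a, Tubb4b and Tubb5, and the gamma-tubulin gene Tubg1. All 10 were among the 17428 genes that passed the filter on low counts (10 or more reads in 20% or more of the libraries). RNA came from the basolateral amygdala (BLA), a nucleus that stores fear memories, of 31 mice, and was sequenced by QuantSeq, which reads the 3′ end of each polyadenylated transcript. The study asked what overexpression of CYFIP1, a partner of the fragile X protein and a part of the WAVE complex that controls actin, does to behavior and to the transcriptome. The 16 WT mice and 15 CYFIP1 OE mice belonged to the transgenic lines labelled 1 and 3, which go back, per the study's methods, to founders made by pronuclear injection of a bacterial artificial chromosome (BAC) carrying human CYFIP1 into C57BL/6N embryos. The study describes its WT mice as littermates of the transgenic mice, while the labels used here give them only as controls. In line 1, 7 of the 8 WT mice shared a name prefix that no CYFIP1 OE mouse had. The site and number of BAC copies in each line were not measured here. Each mouse gave between 5286708 and 8685308 reads. The line labelled 1 had 8 WT mice aged 59 to 61 days and 7 CYFIP1 OE mice aged 59 to 77 days. The line labelled 3 had 8 WT mice aged 58 to 60 days and 8 CYFIP1 OE mice aged 58 to 64 days. Males and females were present in every group, and left and right BLA punches were pooled for each mouse.

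Microtubules are built from dimers of alpha- and beta-tubulin, and a ring of gamma-tubulin starts their growth at a template. Mammals carry several genes, called isotypes, for the alpha and for the beta subunit, whose proteins are nearly the same along most of their length and differ at the acidic tail that points outward from the microtubule. Enzymes add and remove glutamate and tyrosine residues on that tail, and motors and microtubule-associated proteins read it. In neurons microtubules fill axons and dendrites, and Tubb3 serves as a textbook marker of neurons. Cells also hold their tubulin messenger RNAs in balance with free dimer, since ribosomes that make tubulin in excess trigger the decay of the message through the opening residues of the new protein.

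The ends of the coding sequences of most members are shown because they tell many of the isotypes apart. Those of Tubb2a and Tubb2b code for the same residues, as do those of Tuba1b and of Tuba1a, which is not shown. The last codon before the stop is in capitals, the sequences run 5′ to 3′ on the coding strand, and they come from the principal GENCODE vM21 transcripts of GRCm38.
Tuba1b: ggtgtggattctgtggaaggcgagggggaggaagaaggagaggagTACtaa
Tuba4a: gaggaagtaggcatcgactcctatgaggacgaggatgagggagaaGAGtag
Tubb2a: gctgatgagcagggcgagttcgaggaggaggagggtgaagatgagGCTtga
Tubb2b: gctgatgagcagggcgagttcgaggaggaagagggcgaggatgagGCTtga
Tubb4a: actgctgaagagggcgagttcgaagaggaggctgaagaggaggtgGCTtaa
Tubb4b: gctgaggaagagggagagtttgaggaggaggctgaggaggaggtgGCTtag
Tubb5: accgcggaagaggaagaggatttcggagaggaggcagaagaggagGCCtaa
Tubb3: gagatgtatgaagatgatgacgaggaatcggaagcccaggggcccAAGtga
Tuba1b ends on the tyrosine codon TAC, the residue that is removed and restored in the detyrosination cycle, whereas Tuba4a ends on the glutamate codon GAG and lacks that codon. Of the beta genes, Tubb3 alone ended on a lysine codon, AAG, and the other beta genes ended on an alanine codon. The opening 12 bases were atgcgtgagtgc in Tuba1b and atgcgcgagtgc in Tuba4a. They were atgagggagatc in Tubb3 and Tubb4b, and atgccgagagaa in Tubg1.

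The closest relatives lay side by side. Tuba1a (chr15:98949837-98953703) and Tuba1b (chr15:98931425-98934565) were 15271 bases apart on chromosome 15, and their coding sequences were 98.3% identical. Tubb2a (chr13:34074274-34078007) and Tubb2b (chr13:34126748-34130466) were 48740 bases apart on chromosome 13, with coding sequences that were 96.5% identical. For comparison, Tuba1a and Tubb2a shared 54.6% of aligned coding positions. QuantSeq reads come mostly from the 3′ end of the transcript, so assignment depends on that end. The 3′ untranslated region had 148 to 197 bases in Tuba1a, Tuba1b, Tubb2a, Tubb4b and Tubg1. For these genes the last 300 bases therefore include some coding sequence. Of the 31-base words in the last 300 bases of each principal transcript, 0% occurred in another gene for Tuba4a, Tubb2b, Tubb3, Tubb4a, Tubb5 and Tubg1. The share was 22.2% for Tubb2a, 27.0% for Tuba1a, 35.9% for Tubb4b and 40.4% for Tuba1b, and the other genes numbered 3, 13, 7 and 15. Among these were Tubb2b for Tubb2a, and Tubb3 and Tubb4a for Tubb4b. The reads of these 4 genes could therefore have been split with copies or other members, and their values are less certain. Some of their reads could have gone to Tubb2b, Tubb3 and Tubb4a.

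Tuba1a, the main alpha-tubulin gene of postmitotic neurons, had the highest level of the 10 genes. It had 1129 ± 198.4 CPM (SD, n = 31 mice; CPM are read counts scaled to library size with TMM factors), and ranked at position 37 of the 17428 genes. Since QuantSeq yields a single 3′ end for each transcript, CPM were not divided by transcript length and are compared between genes as they are. Tuba1b followed with 709.7 ± 185.6 CPM, Tubb2b with 619.1 ± 142.9, Tuba4a with 372.8 ± 72.49, Tubb2a with 334.1 ± 110.1 and Tubb5 with 327.6 ± 55.81. Lower levels were seen for Tubb4b (190.1 ± 47.04 CPM), Tubb3 (126.5 ± 18.13), Tubb4a (66.94 ± 13.31) and Tubg1 (22.51 ± 5.358). In every mouse Tubb2b was above Tuba4a, Tubb3 above Tubb4a and Tubb4a above Tubg1. Tuba1b was above Tubb2b in 19 of 31 mice and Tuba4a above Tubb2a in 22 of 31, and Tubb2a, with the higher mean, was above Tubb5 in 12 of 31. The order of these neighbours thus changed between mice, and their differences were not tested. The lowest read count behind any value was 100, for Tubg1, and the highest was 14002, for Tuba1a.

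**Figure D1:**
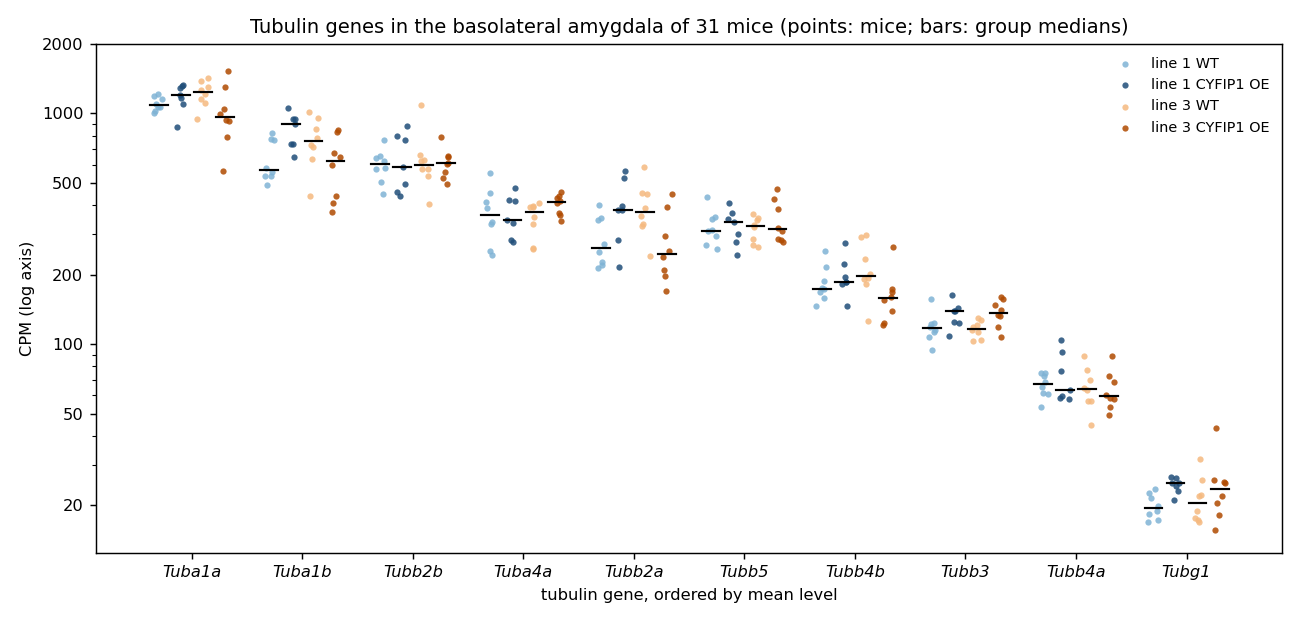
Level of each tubulin gene in CPM (log axis) in each of the 31 mice, with the 4 groups of line and genotype side by side and a bar at each group's median. Tuba1a sits highest at a mean of 1129 CPM and Tubg1 lowest at 22.51 CPM, and the 4 groups overlap for all 10 genes.

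Spread between mice differed among the genes. The coefficient of variation was 14.33% for Tubb3, 17.04% for Tubb5 and 17.57% for Tuba1a, against 26.15% for Tuba1b and 32.95% for Tubb2a. Tubb2a ranged from 170.4 CPM in CYFIP1 OE replicate 14 to 583.4 CPM in WT replicate 2, a 3.424-fold range, while Tubb3 ranged 1.736-fold, from 94.41 to 163.9 CPM. Tuba1a was lowest, at 562.3 CPM, in CYFIP1 OE replicate 1, a male of line 3. That library stood apart from the others, with a connectivity Z-score of -4.74 (how well its profile correlates with all others) and a TMM factor of 0.7469. It also had the highest Tubg1 level, at 43.18 CPM.

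The isotype balance was set by a few genes. Among the alpha members, Tuba1a held 51.06% ± 4.853 of the summed reads (SD, n = 31), Tuba1b 31.69% ± 4.723 and Tuba4a 17.25% ± 4.173. The beta members were more evenly divided. Tubb2b held 37.18% ± 5.532 of their reads, Tubb5 19.85% ± 2.765, Tubb2a 19.8% ± 4.714, Tubb4b 11.36% ± 1.75, Tubb3 7.718% ± 1.309 and Tubb4a 4.092% ± 0.8727. The summed CPM of the 3 alpha members exceeded that of the 6 beta members in 30 of 31 mice, with a ratio of 1.335 ± 0.1404. The exception was the library that stood apart, with a ratio of 0.9477, and in it Tuba1a was also below Tuba1b (ratio 0.8688). Tuba1a was above Tuba1b in 29 of 31 mice and Tubb2b above Tubb2a in 30 of 31.

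By genotype, the shares of Tuba1b, Tuba4a, Tubb2a, Tubb2b, Tubb4a and Tubb5 moved in opposite directions in the lines. Those of Tuba1a, Tubb4b and Tubb3 moved the same way in both. Their differences in line 1 and line 3 were -3.57 and -2.62 percentage points for Tuba1a, -0.45 and -2.18 for Tubb4b and 0.13 and 1.9 for Tubb3. All shares are given as a description without a test. Tuba1b held 29.81% ± 2.507 of alpha reads in WT and 35.44% ± 4.5 in CYFIP1 OE mice of line 1, and 32.28% ± 3.961 and 29.7% ± 5.764 in line 3. Tubb2a held 17.98% ± 3.02 of beta reads in WT and 22.37% ± 6.791 in CYFIP1 OE mice of line 1. In line 3 it held 22.32% ± 3.345 in WT and 16.86% ± 2.811 with CYFIP1 OE, a difference of -5.46 percentage points against a mean SD of 3.09 points. Tuba4a went the other way in line 3, with 15.35% ± 4.144 of alpha reads in WT and 20.57% ± 3.494 in CYFIP1 OE mice. Over both lines no share differed by as much as 1 SD, and the furthest was Tubb3, the neuronal class, at 7.211% ± 1.043 in WT and 8.259% ± 1.378 in CYFIP1 OE mice.

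**Figure D2:**
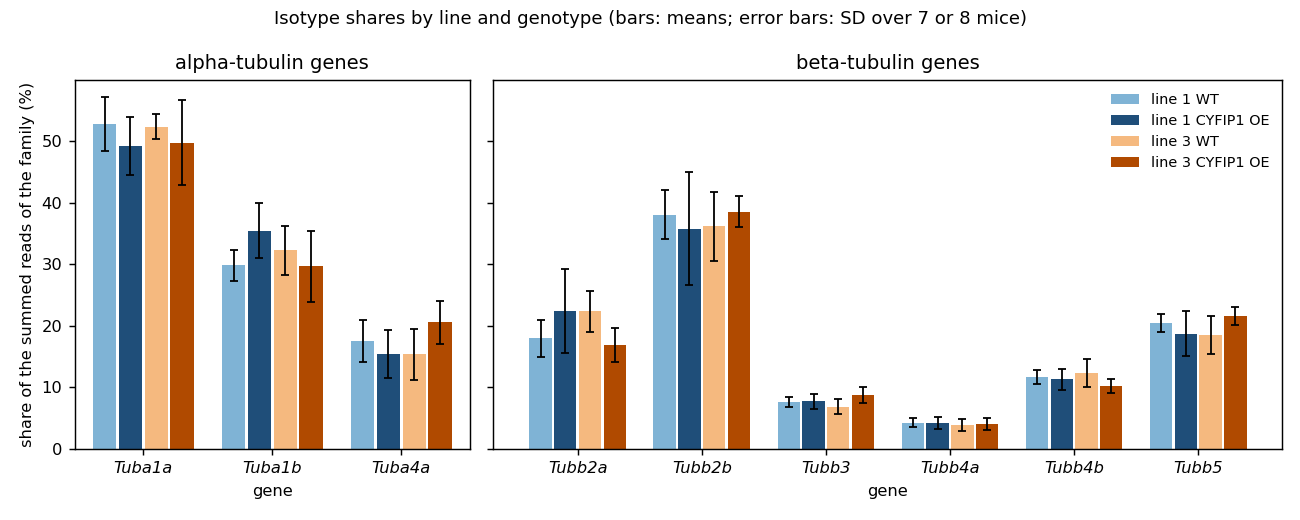
Share of each alpha gene in the summed reads of the 3 alpha genes and of each beta gene in those of the 6 beta genes, in percent, as means with SD over 7 or 8 mice a group. Tuba1a and Tubb2b hold the most reads in every group, and the Tubb2a bar is higher in CYFIP1 OE than in WT mice of line 1 (22.37% against 17.98%) and lower in line 3 (16.86% against 22.32%).

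Before genotype was compared, the mouse counterpart of the human transgene was checked. Mouse Cyfip1 had 33.5 ± 4.478 CPM in WT (n = 16) and 33.01 ± 3.66 CPM in CYFIP1 OE mice (n = 15). The counts cover mouse genes, so they do not check the genotype labels through the human transgene. The study itself reported CYFIP1 mRNA and protein as raised in the BLA of both of its transgenic lines. Between genotypes, in a model that also held sex and line, 0% of the 17428 genes passed an adjusted p under 0.05 in edgeR. The study's threshold, an unadjusted p under 0.005, was met by 0.293%, and an unadjusted p under 0.05 by 4.3%. None of the 10 tubulin genes passed either of the first 2 thresholds, and DESeq2 called none either. In edgeR 2 genes, Tubb3 and Tubg1, had an unadjusted p under 0.05, as they did in DESeq2. The median log2 difference of the 10 genes was 0.04, and that of all genes tested was -0.005.

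Tubb3 had 94.41, 117.1 and 157.4 CPM in the WT mice of line 1 (lowest, median and highest) and 108.1, 138.7 and 163.9 CPM in its CYFIP1 OE mice. In line 3 it had 102.9, 116.7 and 129.4 CPM in WT and 107.1, 136.5 and 160.2 CPM in CYFIP1 OE mice. The groups overlapped in both lines, 13 of 15 CYFIP1 OE mice lay above the mean of the WT mice, and 6 of 8 in line 3 lay above every WT mouse. The log2 difference between CYFIP1 OE and WT was 0.21 (SE 0.07, p = 0.00823, adjusted p = 0.999 from edgeR's quasi-likelihood test), or 1.16-fold. It was 0.18 (SE 0.11) in line 1 and 0.24 (SE 0.11) in line 3, and these differed by 0.06 (SE 0.15, p = 0.716). Leaving out WT replicate 6, CYFIP1 OE replicate 2 or CYFIP1 OE replicate 15 gave an unadjusted p of 0.00175, 0.00319 and 0.00327, and leaving out CYFIP1 OE replicate 8 gave 0.0196. With 5 surrogate variables the difference was 0.14 (SE 0.06, p = 0.0275), with age as a term 0.19 (p = 0.027) and with no filter 0.21 (p = 0.0211). Among mice of the name groups (mice that share a name prefix) that held both genotypes, the log2 difference was 0.25 (SE 0.12, p = 0.05).

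Tubg1, which nucleates microtubules, had 16.91, 19.39 and 23.44 CPM in WT mice of line 1 and 21.07, 24.94 and 26.6 CPM in CYFIP1 OE mice. In line 3 these values were 16.88, 20.41 and 31.69 CPM in WT and 15.66, 23.55 and 43.18 CPM in CYFIP1 OE mice. All 7 CYFIP1 OE mice of line 1 exceeded the mean of the WT mice, 5 of them above every WT mouse, whereas the groups of line 3 overlapped widely. In line 1 genotype cannot be told apart from name group for most mice, and 4 of the 7 CYFIP1 OE mice were aged 77 days. The log2 difference over both lines was 0.24 (SE 0.11, p = 0.0387, adjusted p = 0.999 from edgeR). Without the library that stood apart it was 0.16 (p = 0.116), and in line 3 it went from 0.18 (SE 0.16) to 0.02 (SE 0.14). In name groups with both genotypes the difference over both lines was 0.28 (SE 0.17, p = 0.122 from edgeR). With 5 surrogate variables it was 0.12 (SE 0.1, p = 0.211) over both lines and 0.31 (SE 0.13, p = 0.0274) in line 1, also from edgeR.

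Within the lines, the alpha and beta genes with the widest spread showed opposite differences. In line 1, 0% of all genes passed the adjusted threshold, 0.35% had an unadjusted p under 0.005 and 3.96% one under 0.05. In line 3 these shares were 0%, 0.93% and 7.93%. No tubulin gene had an unadjusted p under 0.005 in either line, and 2 of 10 in line 1 and 4 of 10 in line 3 had one under 0.05. With DESeq2 these counts were 2 and 5. In line 1, 9 of the 10 genes had a higher fitted level in CYFIP1 OE mice (median log2 difference 0.12, against 0.002 for all genes). In line 3, 4 were higher and 6 lower (median -0.05, against -0.019).

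Tubb2a, a class II beta-tubulin of neurons, had 213.7, 261.6 and 402.9 CPM in WT mice of line 1 and 215.3, 383.0 and 561.0 CPM in CYFIP1 OE mice. In line 3 it had 241.4, 373.3 and 583.4 CPM in WT and 170.4, 246.8 and 446.2 CPM in CYFIP1 OE mice. The CYFIP1 OE median was thus above the WT median in line 1 and below it in line 3, with overlap of the groups in both. The log2 difference was 0.46 (SE 0.21, p = 0.0333, adjusted p = 1.0 from edgeR) in line 1 and -0.51 (SE 0.20, p = 0.0161, adjusted p = 0.548) in line 3.

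Tuba1b had 487.2, 570.4 and 824.0 CPM in WT and 649.9, 899.5 and 1060 CPM in CYFIP1 OE mice of line 1, where all 7 CYFIP1 OE mice exceeded the mean of the WT mice. In line 3 it had 436.4, 756.5 and 1013 CPM in WT and 373.7, 622.0 and 851.3 CPM in CYFIP1 OE mice, of which 6 of 8 were below the WT mean. Its log2 difference was 0.43 (SE 0.18, p = 0.0209) in line 1 and -0.35 (SE 0.17, p = 0.0528) in line 3.

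The difference between the lines was tested itself. For this contrast 0% of genes passed the adjusted threshold in edgeR, 0.843% had an unadjusted p under 0.005 and 8.1% one under 0.05. Among the tubulin genes, Tubb2a and Tuba1b met the unadjusted threshold of 0.005, Tubb4b had one under 0.05, and none passed the adjusted threshold. The genotype difference in line 3 minus that in line 1 was -0.97 on the log2 scale for Tubb2a (SE 0.29, p = 0.00197, adjusted p = 0.528 from edgeR) and -0.78 for Tuba1b (SE 0.25, p = 0.00354, adjusted p = 0.535). With 5 surrogate variables as terms these values were -0.24 (SE 0.13, p = 0.0752) and -0.19 (SE 0.16, p = 0.259), so that neither call held, and with age as a term they were -0.92 (p = 0.009) and -0.70 (p = 0.0178). DESeq2 gave both genes the same call, with adjusted p-values of 0.242 and 0.325. Without CYFIP1 OE replicate 2 or 7 the Tubb2a value was -0.87 (p = 0.00529) and -0.86 (p = 0.00535), and Tuba1b was between -0.86 and -0.70 with 1 mouse left out, at an unadjusted p over 0.005 for 15 of the 31 mice. Without the 4 mice aged 77 days, all of them CYFIP1 OE mice of line 1, the values were -0.93 (p = 0.01) for Tubb2a and -0.70 (p = 0.027) for Tuba1b. Moreover, 7 of the 8 WT mice of line 1 shared a name prefix that no CYFIP1 OE mouse had, and only 1 WT and 1 CYFIP1 OE mouse of this line came from the same name group, so that genotype and name group cannot be told apart for the other mice of the line. In that name group Tuba1b had 558.4 CPM in the WT and 1060 CPM in the CYFIP1 OE mouse, and Tubb2a had 226.1 and 527.0 CPM. The WT mouse was a female and the CYFIP1 OE mouse a male. Their summed levels of striatal projection neuron markers, described below, were 4412 and 749.8 CPM. With 1 mouse of each genotype, genotype cannot be told apart from sex or from these marker levels.

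Tubb4b and Tuba1a also had an unadjusted p under 0.05 in line 3. Tubb4b, a class IV beta-tubulin found in many cell types, had 126.5, 197.6 and 296.4 CPM in WT and 121.1, 157.9 and 262.4 CPM in CYFIP1 OE mice of that line, where 7 of 8 CYFIP1 OE mice were below the WT mean. Its log2 difference was -0.40 (SE 0.16, p = 0.0184, adjusted p = 0.552 from edgeR) in line 3 and 0.10 (SE 0.17) in line 1. Without CYFIP1 OE replicate 12, the highest of its group, the difference in line 3 was -0.54 (p = 0.00148), and without WT replicate 14 it was -0.48 (p = 0.00364). Without CYFIP1 OE replicate 12 the Tubb2a difference in that line was -0.64 (p = 0.00327). Tuba1a had 946.3, 1238 and 1422 CPM in WT and 562.3, 968.6 and 1523 CPM in CYFIP1 OE mice of line 3, with a log2 difference of -0.28 (SE 0.13, p = 0.0438) against 0.10 (SE 0.14) in line 1. The difference between the lines was -0.38 (SE 0.19, p = 0.0572), and the value in line 3 was -0.18 (p = 0.125) without the library that stood apart.

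The other members showed smaller differences. The log2 differences in line 1 and line 3 were -0.04 (SE 0.15) and 0.21 (SE 0.14) for Tuba4a, 0.07 (SE 0.17) and -0.06 (SE 0.16) for Tubb2b, 0.15 (SE 0.15) and -0.04 (SE 0.14) for Tubb4a and 0.01 (SE 0.13) and 0.12 (SE 0.13) for Tubb5. None of these 8 differences had an unadjusted p under 0.05. Between the lines themselves, and between the sexes, an unadjusted p under 0.05 was found for 0 of 10 in edgeR and in DESeq2. Over all genes, 0% passed the adjusted threshold for line and 0.0631% for sex. The shares with an unadjusted p under 0.005 were 0.189% and 0.436%, and those with one under 0.05 were 3.31% and 4.62%.

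**Figure D3:**
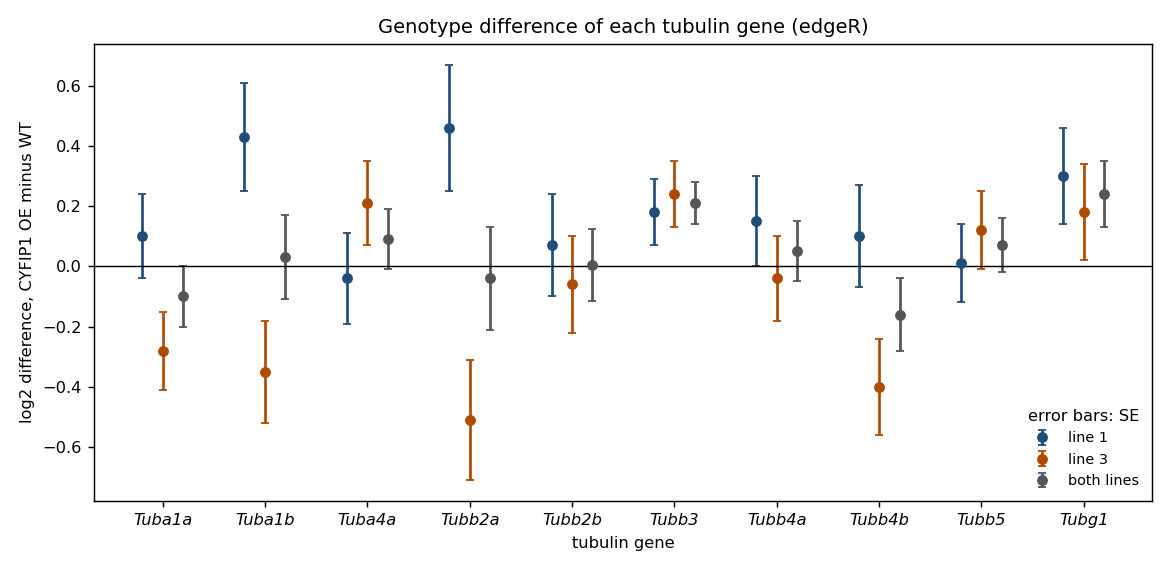
Log2 difference between CYFIP1 OE and WT mice for each tubulin gene, from edgeR, in line 1, line 3 and both lines, with SE bars. Tubb2a and Tuba1b lie above 0 in line 1 (0.46 and 0.43) and below 0 in line 3 (-0.51 and -0.35), while Tubb3 lies above 0 in both (0.18 and 0.24).

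Neuron marker levels differed widely between the mice. In bulk tissue, fewer cells of a type and less RNA per cell cannot be told apart. All 6 markers of BLA principal neurons were detected, but Slc17a7, their glutamate transporter, ranged from 3.011 to 1109 CPM. All 9 markers of striatal projection neurons were found, 8 passed the filter, and Ppp1r1b (DARPP-32) had a median of 1045 CPM. Their summed level was between 3085 and 4412 CPM in WT and between 749.8 and 4878 CPM in CYFIP1 OE mice of line 1, with medians of 3937 and 2545. In line 3 it was between 268.6 and 5640 CPM in WT and between 301.7 and 6257 CPM in CYFIP1 OE mice, with medians of 2564 and 3919. In line 1 the median of the striatal markers was thus below that of WT in the CYFIP1 OE mice, where Tubb2a and Tuba1b were higher, and in line 3 it was above, where they were lower. With the striatal and BLA principal neuron marker scores as further terms, an alternative chosen after seeing the data, the difference between the lines was -0.46 (SE 0.22, p = 0.0465) for Tubb2a and -0.40 (SE 0.21, p = 0.0677) for Tuba1b. With the same terms the Tubb3 difference over both lines was 0.22 (SE 0.07, p = 0.00296). Since the marker medians also differed between the genotype groups, marker level and genotype cannot be told apart here. The cause of the opposite differences of Tubb2a and Tuba1b was not tested.

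After sex, line and genotype were removed from log2 CPM, 11 of the 45 pairs of members had a correlation over the 31 mice with an adjusted p under 0.05 (permutation test, adjusted over the 45 pairs), and all 11 were positive. The median r of the 45 pairs was 0.154. The 3 highest values were those among Tuba1b, Tubb2a and Tubb4b. The correlation was 0.871 for Tuba1b and Tubb2a (rho 0.855), 0.839 for Tuba1b and Tubb4b (rho 0.837) and 0.703 for Tubb2a and Tubb4b (rho 0.77). For each of these 3 pairs the permutation p of r and of rho was 1e-05, the smallest that 100000 permutations can give (adjusted p = 0.00015 for r and 9e-05 for rho). Without the 2 mice farthest from the median the r values were 0.841, 0.811 and 0.638. Tuba1a went with the same genes, at 0.617 with Tuba1b, 0.67 with Tubb2a and 0.545 with Tubb4b (permutation p = 0.00016, 3e-05 and 0.00126, adjusted p = 0.0012, 0.000337 and 0.0063). The rho values were 0.738, 0.822 and 0.692 (permutation p = 1e-05, 1e-05 and 2e-05, adjusted p = 9e-05, 9e-05 and 0.00015). Without the library that stood apart, r was 0.764, 0.838 and 0.651, and without the 2 mice farthest from the median of Tuba1a it was 0.752, 0.82 and 0.581. Without that library Tuba1a and Tubb2a (0.838) were thus above Tubb2a and Tubb4b (0.703). Tuba1a, Tuba1b, Tubb2a and Tubb4b are also the members whose 3′ ends shared 31-base words with other genes, at 22.2% to 40.4% of the words. The genes that shared words with Tubb2a or with Tubb4b did not include Tuba1a, Tuba1b or each other. The members that did share words had r values of 0.132 (Tubb2a and Tubb2b), 0.14 (Tubb4b and Tubb3) and 0.274 (Tubb4b and Tubb4a). The part of shared read assignment in these correlations was not tested.

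A separate set was Tuba4a, Tubb3 and Tubb5. Tubb3 and Tubb5 correlated at 0.656 (rho 0.58, permutation p = 9e-05 and 0.00091, adjusted p = 0.00081 and 0.00512), Tuba4a and Tubb3 at 0.579 (rho 0.504, p = 0.00069 and 0.00459, adjusted p = 0.00444 and 0.0207) and Tuba4a and Tubb5 at 0.508 (rho 0.504, p = 0.00338 and 0.0038, adjusted p = 0.0152 and 0.019). Without the 2 mice farthest from the median these were 0.563, 0.376 and 0.333, so the pairs with Tuba4a rested in part on those mice. Tubb5 also went with Tubb2a, at 0.565 (rho 0.614, permutation p = 0.00093 and 0.00031, adjusted p = 0.00523 and 0.00199), at 0.568 without the 2 mice farthest from the median and at 0.166 once the oligodendrocyte and neuron scores were removed too. Tubb2b and Tubb4b had a correlation of 0.447 (adjusted p = 0.0472 from a permutation p of 0.0115) but a rho of 0.299 (permutation p = 0.102, adjusted p = 0.305), and 0.377 without the 2 farthest mice. By contrast, the neighbours Tubb2a and Tubb2b, whose coding tails above differ at few bases, had an r of 0.132, and Tubb4a and Tubg1 were in no pair that passed.

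Within groups of mice the 2 strongest pairs kept their sign. For Tuba1b and Tubb2a, r was 0.917 within WT and 0.762 within CYFIP1 OE mice, 0.81 within line 1 and 0.893 within line 3. For Tuba1b and Tubb4b these values were 0.844, 0.801, 0.64 and 0.89, with an adjusted p of 0.0704 within line 1 (permutation test). Tuba1a and Tubb4b, however, were at -0.065 within line 1 and 0.673 within line 3, so that this relation did not hold in both. Tuba4a and Tubb5 were at 0.826 within WT and 0.136 within CYFIP1 OE mice, and Tuba4a and Tubb3 at 0.8 and 0.335. The difference between genotypes was not tested.

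**Figure D4:**
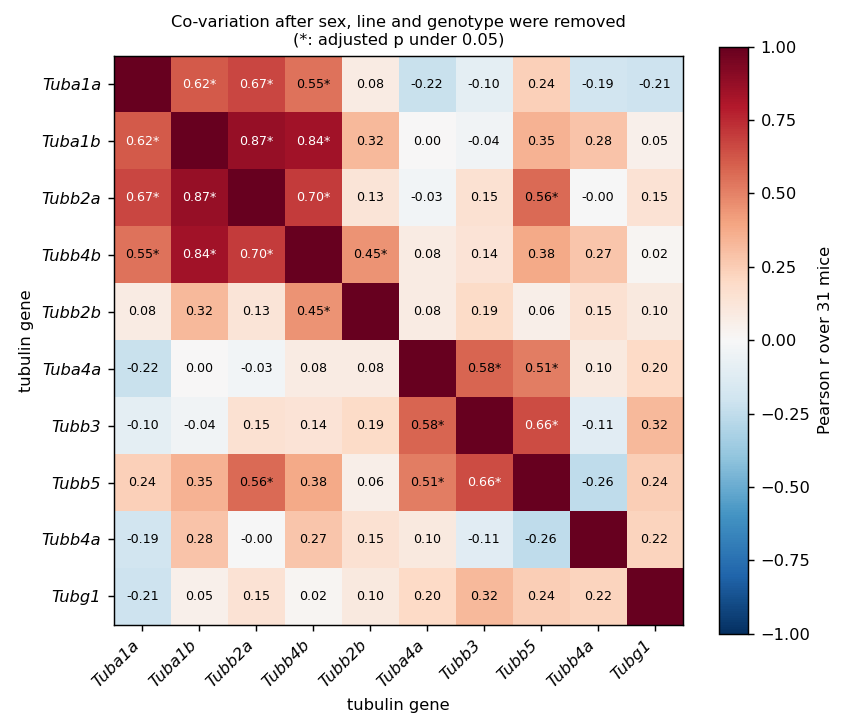
Pearson correlation of each pair of tubulin genes over the 31 mice, from log2 CPM after sex, line and genotype were removed, with a star where the adjusted p was under 0.05. A block of Tuba1a, Tuba1b, Tubb2a and Tubb4b (0.545 to 0.871) and a block of Tuba4a, Tubb3 and Tubb5 (0.508 to 0.656) stand out, and Tubb2a and Tubb2b are at 0.132. The genes of the first block are the members whose 3′ ends shared 31-base words with other genes. For Tubb2a and Tubb4b these other genes did not include Tuba1a, Tuba1b or each other.

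The promoters of Tuba1b, Tubb2a and Tubb4b are shown because these genes varied together over the mice. Each is the RefSeq window of GRCm38.p6 from 250 bases before to 50 bases after the gene start, 5′ to 3′ on the strand of the gene. Capitals mark exact matches, on either strand, to 3 motifs. These were the GC box, spelled GGGCGG, which reads CCGCCC when it lies on the other strand, the CCAAT box, spelled by its name, and the TATA box, spelled TATAAA. No match overlapped a match to another of the 3.
Tuba1b (chr15:98934341-98934640, minus strand): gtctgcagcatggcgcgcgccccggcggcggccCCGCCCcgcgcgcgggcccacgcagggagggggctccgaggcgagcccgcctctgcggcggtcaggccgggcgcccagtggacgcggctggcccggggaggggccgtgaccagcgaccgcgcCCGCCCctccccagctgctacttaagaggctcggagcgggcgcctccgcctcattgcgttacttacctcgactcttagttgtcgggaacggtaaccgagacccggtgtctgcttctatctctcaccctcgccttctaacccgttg
Tubb2a (chr13:34077959-34078258, minus strand): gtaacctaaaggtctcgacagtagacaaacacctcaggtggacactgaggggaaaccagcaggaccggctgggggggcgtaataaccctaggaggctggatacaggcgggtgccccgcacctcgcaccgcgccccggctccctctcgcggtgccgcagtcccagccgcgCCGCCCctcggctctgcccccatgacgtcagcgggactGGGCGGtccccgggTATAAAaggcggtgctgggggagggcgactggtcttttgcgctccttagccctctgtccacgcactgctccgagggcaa
Tubb4b (chr2:25224653-25224952, minus strand): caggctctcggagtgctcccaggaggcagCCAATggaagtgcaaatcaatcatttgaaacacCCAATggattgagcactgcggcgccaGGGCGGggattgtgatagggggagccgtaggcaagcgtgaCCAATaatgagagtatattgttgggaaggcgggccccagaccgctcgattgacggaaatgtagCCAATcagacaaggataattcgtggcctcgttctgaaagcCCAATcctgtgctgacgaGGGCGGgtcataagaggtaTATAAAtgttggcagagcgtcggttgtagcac
The Tubb4b window held 5 matches to CCAAT, 2 to the GC box and 1 to the TATA box. The Tubb2a window held 2 GC boxes and 1 TATA box, and that of Tuba1b held 2 GC boxes only. A GC box was the only one of the 3 motifs that all of them shared, and it was present in 7 of the 8 tubulin promoters in the table and in 35.7% of all 32851 promoters. CCAAT was present in 4 of 8 and in 37.4% of all, and TATAAA in 2 of 8 and in 13.6% of all. These are matches of letters and not evidence of binding.

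Marker genes of cell types went with some members and not with others. Of 90 relations between the 10 genes and 9 marker scores (the mean of z-scored markers, with sex, line and genotype removed), 15 had an adjusted p under 0.05, 6 positive and 9 negative (permutation test). Tubb2a had a correlation of 0.689 with BLA principal neurons, 0.649 with the general neuron list, -0.674 with striatal projection neurons, -0.597 with oligodendrocytes and -0.633 with microglia. The permutation p-values were 2e-05, 0.00018, 2e-05, 0.00046 and 0.00014, and the adjusted p-values 0.00045, 0.00202, 0.00045, 0.00414 and 0.0018. The corresponding rho values were 0.675, 0.611, -0.683, -0.582 and -0.615 (permutation p = 4e-05, 0.00033, 5e-05, 0.00069 and 0.00039). Tubb5, the class I beta-tubulin, had a correlation of 0.747 with BLA principal neurons (rho 0.818), 0.674 with the neuron list (rho 0.662), -0.707 with oligodendrocytes (rho -0.754) and -0.47 with oligodendrocyte precursors (rho -0.572). Their permutation p-values were 1e-05, 6e-05, 4e-05 and 0.00725 for r and 1e-05, 7e-05, 1e-05 and 0.00107 for rho (adjusted p for r 0.00045, 0.0009, 0.00072 and 0.0466). Tuba1b went with striatal projection neurons at -0.681 (rho -0.789, permutation p = 2e-05 and 1e-05, adjusted p = 0.00045) and with BLA principal neurons at 0.545 (rho 0.477, permutation p = 0.00168 and 0.00736, adjusted p = 0.0126). Tubb4b went with striatal projection neurons at -0.566 (rho -0.643, permutation p = 0.00095 and 0.00011, adjusted p = 0.00777).

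Tubb3 and Tuba4a also had relations that passed. Tubb3 was at 0.469 with the neuron list (rho 0.427, permutation p = 0.00789 and 0.0162, adjusted p = 0.0473 and 0.0662). Tuba4a was at -0.608 with oligodendrocyte precursors (rho -0.67, permutation p = 0.00038 and 0.00011, adjusted p = 0.0038) and at -0.487 with astrocytes (rho -0.5, permutation p = 0.00504 and 0.0045, adjusted p = 0.0349). Tuba1a, Tubb2b, Tubb4a and Tubg1 had no Pearson correlation with a marker score that passed. For Tuba1a and striatal projection neurons r was -0.18 but rho was -0.501 (permutation p = 0.324 and 0.00438, adjusted p = 0.47 and 0.0255), and r was -0.655 without the library that stood apart. For Tuba1a and microglia r was -0.42 and rho -0.577 (permutation p = 0.0193 and 0.00094, adjusted p = 0.0882 and 0.00705). Without the 2 mice farthest from the median of the score, the 15 correlations kept their sign. Without the library that stood apart 19 relations passed, but not Tubb3 with the neuron list (adjusted p = 0.0638) or Tubb5 with oligodendrocyte precursors (0.0591, permutation tests). With sex, line and genotype left in 12 passed, but not Tuba1b with BLA principal neurons (0.0706), Tuba4a with astrocytes (0.0835) or Tubb3 with the neuron list (0.127). Within lines, Tubb2a and striatal projection neurons were at -0.727 in line 1 and -0.61 in line 3, and Tubb4b and the same list at -0.182 and -0.611. Within lines Tubb5 and BLA principal neurons were at 0.899 and 0.72.

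**Figure D5:**
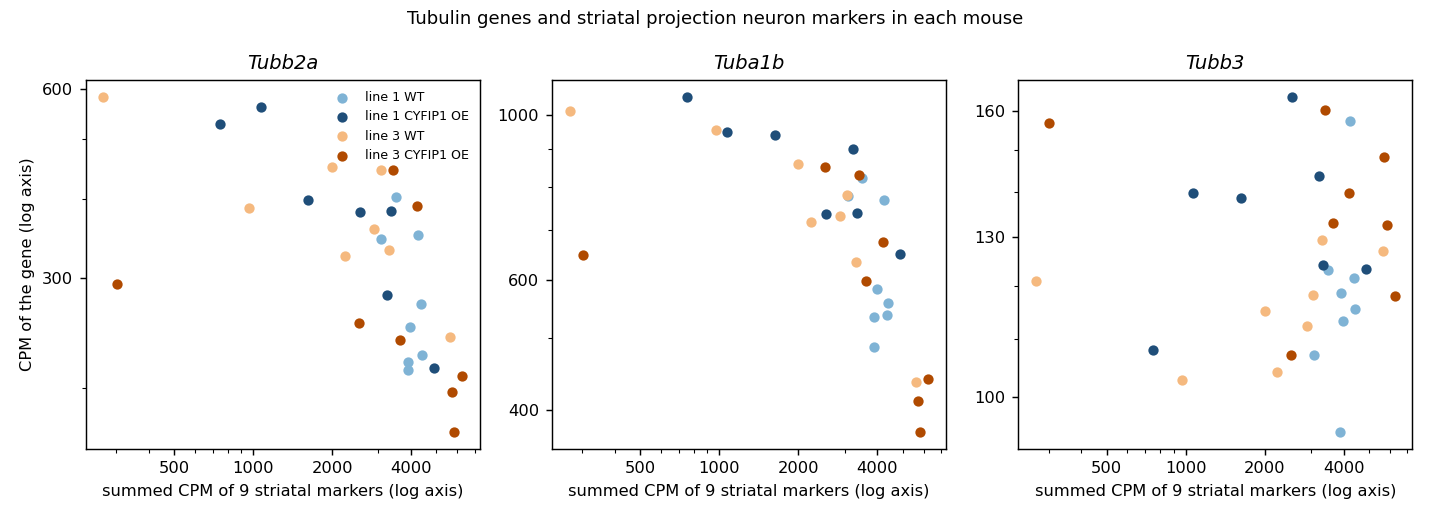
CPM of Tubb2a, Tuba1b and Tubb3 against the summed CPM of 9 striatal projection neuron markers in each of the 31 mice (both axes log), coloured by line and genotype. Tubb2a and Tuba1b tend to be lower in mice with more striatal marker reads, with correlations at -0.674 and -0.681 (log2 values and marker score, after sex, line and genotype were removed), against 0.041 for Tubb3.

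Measures of the libraries moved with several members as well (40 relations, chosen after seeing the data). The percentage of reads on mitochondrial genes correlated with Tuba1b at -0.593 (rho -0.611), Tubb2a at -0.582 (rho -0.588) and Tubb4b at -0.616 (rho -0.683). The permutation p-values were 0.00044, 0.00048 and 0.00031 for r and 0.00029, 0.0007 and 4e-05 for rho (adjusted p = 0.0048 for each r). Without the 2 mice farthest from the median of that percentage, r was -0.623, -0.625 and -0.59. Tubb2b correlated with the log2 of the total reads at 0.676 (rho 0.704, permutation p = 3e-05 and 1e-05, adjusted p = 0.0012 and 0.0004), and at 0.683 without the 2 farthest mice. Tuba4a correlated with the log2 of the TMM factor at -0.552 (rho -0.606, permutation p = 0.00114 and 0.00045, adjusted p = 0.0076 and 0.0045). CPM are computed by division by the total reads and the TMM factor. Correlations with these measures are therefore not between independent values, which the permutation test does not take into account. Tuba1a and Tubg1 correlated with the log2 of the TMM factor at 0.585 and -0.549 (rho 0.419 and -0.271, permutation p = 0.00078 and 0.00209 for r and 0.0201 and 0.14 for rho, adjusted p for r 0.00624 and 0.0119). Without the 2 farthest mice these were 0.316 and -0.107, so they rested on those mice. In all 9 of the 40 relations passed. The part of these measures in the correlations between members was not tested.

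The genes most like each member were sought among the 8419 other genes with a mean of at least 10 CPM, over the 31 mice. Tubb2a was most like Ywhag (r = 0.938), a 14-3-3 protein, Syn2 (0.936), a synaptic vesicle protein, and Amph (0.924), an endocytic protein. Those of Tuba1a were Atp6v1b2 (0.897), a subunit of the vesicular proton pump, Sult4a1 (0.887) and Snap91 (0.883), a clathrin adaptor of synapses. Tuba1b was like Mtfp1 (0.89) and Syt13 (0.871), Tuba4a most like Rab6b (0.881), Tmem50a (0.865) and Gabarapl1 (0.844), and Tubb4b most like Acot7 (0.854), the dynein intermediate chain gene Dync1i1 (0.803) and Mtfp1 (0.772). Tubb5 was most like Ids (0.803), Rtn1 (0.8) and Eid2 (0.791). Likeness was lower for Tubb3, with Spryd3 (0.771), Il34 (0.73) and Bysl (0.724), for Tubb2b, with Phpt1 (0.745), Neu1 (0.682) and Spr (0.671), and for Tubb4a, with Capn2 (0.728), Tecr (0.727) and Endod1 (0.708). Tubg1 had Ap2s1 (0.739), Atp5l (0.693) and the tubulin folding cofactor gene Tbcc (0.692), and these values were 0.502, 0.542 and 0.543 without the 2 mice farthest from the median of Tubg1. The number of genes with an r over 0.7 was 275 for Tubb2a, 200 for Tuba1a and 146 for Tuba1b, against 1 for Tubb2b and 1 for Tubg1. These are descriptions, and the genes share libraries and depth.

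The rest of the tubulin pathway showed little difference between genotypes. Of 10 other tubulin genes 5 passed the filter, and all were low: Tubg2, the second gamma-tubulin gene, had 12.94 ± 4.897 CPM, Tuba1c 8.298 ± 15.04, Tubd1 2.311 ± 1.438, Tube1 0.7233 ± 0.7627 and Tuba8 0.6008 ± 0.7929. None of the 5 had an unadjusted p under 0.05 in any of the genotype comparisons. Over both lines the log2 difference was 0.20 (SE 0.18) for Tubg2 and -0.37 (SE 0.59) for Tuba1c. Of the 10 genes of the gamma-tubulin ring complex and its partners, 0 had an unadjusted p under 0.005 over both lines, against 0.293% of all genes, and 2 had one under 0.05. These were Mzt2, a small subunit of the ring (log2 difference -0.38, SE 0.16, p = 0.0244), and Nme7, a kinase of the ring (0.56, SE 0.24, p = 0.0268), with an adjusted p of 0.999 each from edgeR. In line 3 Nme7 had 83.9, 121 and 169 CPM in WT and 124, 144 and 871 CPM in CYFIP1 OE mice (lowest, median and highest). The highest CYFIP1 OE mouse thus lay far above the median of its group.

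Of 22 folding cofactors and chaperones, 14 were higher and 8 lower in CYFIP1 OE mice, 0 had an unadjusted p under 0.005 (0.293% of all genes), and 2 had one under 0.05 (4.3% of all genes): Tbcc, which completes the release of the folded dimer (0.25, SE 0.11, p = 0.0302), and the prefoldin subunit gene Pfdn1 (0.22, SE 0.10, p = 0.0421). Of 21 enzymes that modify tubulin, 7 were higher and 14 lower, with a median log2 difference of -0.119 against -0.005 for all genes, 0 had an unadjusted p under 0.005 and 2 had one under 0.05. The smallest p-values were those of the tubulin tyrosine ligase-like genes Ttll3, which adds glycine (-0.71, SE 0.29, p = 0.0178), and Ttll4, which adds glutamate (-0.38, SE 0.18, p = 0.0403), at mean levels of 2.54 and 5.71 CPM. Of 36 microtubule-associated and stathmin genes, 19 were higher and 17 lower. Katna1, the catalytic subunit of the microtubule-severing enzyme katanin, was the only gene of these lists with an unadjusted p under 0.005 in a genotype comparison, 1 of 36 against 0.293% of all genes, at a log2 difference of -0.38 (SE 0.11, p = 0.002, adjusted p = 0.999 from edgeR). It was -0.32 (SE 0.17) in line 1 and -0.44 (SE 0.16) in line 3. Stmn3, a tubulin-sequestering stathmin, followed with 0.19 (SE 0.10, p = 0.0523). In line 1, 0 of 10 ring genes, 0 of 22 folding genes, 2 of 21 modifying genes and 2 of 36 microtubule-associated genes had an unadjusted p under 0.05, against 3.96% of all genes. In line 3 these counts were 1, 2, 1 and 5, against 7.93%. After adjustment over all genes, 0 genes of the 5 lists passed in any genotype comparison.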

How the data were processed

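BLA RNA of 31 mice was sequenced by QuantSeq. The authors aligned reads with STAR to GRCm38, used Salmon for quantification and Picard and MultiQC for quality, and deposited expected counts per gene and mouse, which need not be whole. Versions are not given in the sources used here. Here the deposited expected counts were rounded. The filter (10 or more reads in 20% or more of the libraries) left 17428 of 48709 genes. Total reads per mouse ranged from 5286708 to 8685308 (median 7387585).

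Samples were grouped by the genotype and line in the labels. The main test was edgeR's quasi-likelihood test (version 4.0.16, R 4.3.3) with TMM scaling, on sex, line and genotype, or on the 4 groups of line and genotype with sex. P-values were adjusted over all genes by Benjamini-Hochberg. The mice are separate animals, but those that share a name prefix may be related. CPM used a prior count of 2 on the log2 scale for correlations, which were tested with 100000 permutations. DESeq2 (1.42.0), svaseq (sva 3.50.0), other filters and scalings, age, and leaving mice out were alternatives. The genes named outside the members were, of each pathway list, those with an unadjusted p under 0.005 in a genotype comparison and the 2 with the smallest p over both lines, the 3 genes most alike to each member, and markers of lists that went with a member. A few of these items are not reported here. The tubulin genes, lists and tests were chosen with earlier results of these data known. On simulated counts for 17428 genes, edgeR gave an unadjusted p under 0.005 to 80% of genes changed by 0.5 (log2) between genotypes over both lines, 48% in the line labelled 3 and 11% for the difference between lines. At a change of 1 these were 98%, 94% and 75%. An adjusted p under 0.05 was reached less often, by 58%, 18% and 1% of these genes at a change of 0.5. At a change of 1 it was reached by 96%, 80% and 36%. The study names its lines 1 and 2, while the labels used here give 1 and 3. No protein sequences were used here.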

Additional observations from a re-analysis of the deposited data

Results flagged for a closer look

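A gap test (Dixon's) was applied to the highest and lowest mouse of each tubulin gene in each of the 4 groups of line and genotype, 40 groups in all, and chance gives a hit in about 1 of 20. Of these, 4 groups had a mouse that stood apart. Tubb2b was at 1091 CPM in WT replicate 2, a female of line 3, and the next mouse was at 663.5. Tubb3 was at 157.4 CPM in WT replicate 6, a male of line 1, and the next was at 123.2. Tubb4b was at 262.4 CPM in CYFIP1 OE replicate 12, a female of line 3, and the next was at 172.5. Tubg1 was at 43.18 CPM in CYFIP1 OE replicate 1, the male whose library stood apart, and the next was at 25.85.

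The genotype differences of 2 genes differed between the lines at an unadjusted p under 0.005. The difference in line 3 minus that in line 1 was -0.78 on the log2 scale for Tuba1b and -0.97 for Tubb2a, and neither passed after adjustment over all genes. With 5 surrogate variables these were -0.19 (p = 0.259) and -0.24 (p = 0.0752), and with age as a term -0.7 (p = 0.0178) and -0.92 (p = 0.009), from edgeR, so that neither was under 0.005.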

How the results depend on the processing

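Mice could not be paired by replicate number, because these numbers only name the mice within a genotype. The 5 name groups with both genotypes (9 WT and 9 CYFIP1 OE mice) were fitted with the name group as a term, and 0 tubulin genes had an unadjusted p under 0.005 over both lines. Over both lines, 0 tubulin genes had an unadjusted p under 0.005, and 1 (Tubb3) did with the marker scores as terms, an alternative chosen after seeing the data. For the difference between lines the count was 2, and 0 with age as a term, with 5 surrogate variables, without the mice aged 77 days and with the marker scores. With 5 surrogate variables Tubb2a was at -0.24 and Tuba1b at -0.19, and with age as a term at -0.92 and -0.7. With 1 mouse left out the counts ranged from 0 to 1 over both lines, from 0 to 2 in line 3 and from 0 to 2 between lines. The pairs of genes that passed numbered 11, and 9 within WT mice, 3 within CYFIP1 OE mice, 4 within line 1 and 5 within line 3. The cause of these changes was not tested.

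Signs turned for small differences. Over both lines Tuba1b was -0.08 with age as a term, -0.09 without the mice aged 77 days and -0.2 in name groups with both genotypes, and Tubb2b was -0.04, -0.03 with 5 surrogate variables, -0.03 without the mice aged 77 days and -0.005 with the marker scores. With 5 surrogate variables Tuba4a was -0.05, Tubb4a -0.03 and Tubb5 -0.01 over both lines, Tuba1a -0.02, Tubb4b -0.07 and Tubb5 -0.12 in line 1, Tuba4a -0.07 and Tubg1 -0.08 in line 3, and Tuba4a -0.03 and Tubb3 -0.1 between lines. Without the mice aged 77 days Tuba4a was 0.02 and Tubb5 -0.1 in line 1. With the marker scores Tuba4a was 0.06, Tubb2b -0.03, Tubb4b -0.04 and Tubb5 -0.05 in line 1, and Tubb2b was 0.02 in line 3 and 0.05 between lines. The pair Tuba1a and Tubb4b was at -0.065 within line 1.

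With 1 mouse left out, signs turned over both lines for Tuba1b (-0.01 to 0.09), Tubb2a (-0.11 to 0.03), Tubb2b (-0.04 to 0.09) and Tubb4a (-0.002 to 0.09), in line 1 for Tuba4a (-0.12 to 0.08), Tubb2b (-0.02 to 0.15) and Tubb5 (-0.04 to 0.1), in line 3 for Tubb2b (-0.13 to 0.1) and Tubb4a (-0.11 to 0.04), and between lines for Tubb2b (-0.21 to 0.02) and Tubb3 (-0.01 to 0.11).

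Over all genes, the number with an unadjusted p under 0.005 over both lines was 51, against 81 with DESeq2, 107 with 5 surrogate variables, 120 with the marker scores and 366 with no filter. In line 1 it was 61, against 103 with surrogate variables, 108 fitted alone and 217 with no filter. In line 3 it was 162, against 84 with surrogate variables, 74 fitted alone, 250 with the marker scores and 347 with no filter. Between lines it was 147, against 90 with age, 47 with surrogate variables, 92 without the mice aged 77 days, 88 with the marker scores, 342 without the library that stood apart and 591 with no filter. For line it was 33, against 75 with DESeq2, 69 with surrogate variables and 383 with no filter, and for sex 76 against 409 with no filter. DESeq2 called 1 gene in line 1, 4 in line 3 and 2 between lines after adjustment, none of them a tubulin gene of the 10. The lowest depth behind a member was 100 reads, for Tubg1, where the coefficient of variation between mice was 23.8%.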

Other observations

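Tuba1c, a minor alpha-tubulin gene, was chosen here after its values were seen. It had 76.87 CPM in CYFIP1 OE replicate 1, 35.13 CPM in WT replicate 1 and 31.44 CPM in WT replicate 2, all of the line labelled 3 and of the same name group, and the next mouse was at 14.18 CPM. The other mouse of that name group, WT replicate 3, was at 1.424 CPM. These 3 mice also had the lowest summed levels of striatal projection neuron markers outside 1 CYFIP1 OE mouse of line 1, at 301.7, 967.7 and 268.6 CPM.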
